A study of Mus musculus with 17 samples.

Results

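Among the 547 places where an antibody against UTX gave a peak in control mouse epidermis, 265 (48.4%, 95% Wilson interval 44.3 to 52.6) lay inside a protein-coding gene. A peak counted as inside when at least 1 bp of it overlapped the span of such a gene, from its annotated start to its annotated end on mouse build GRCm38. The other 282 control UTX peaks lay outside protein-coding genes, which is what "outside genes" means below, and the 4 peak lists of the study hold 2948 peaks in all. The intragenic peaks fell in 262 different host genes.

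The peaks come from chromatin immunoprecipitation followed by sequencing (ChIP-seq) on single-cell suspensions of the epidermis of female mice, crosslinked with 1% formaldehyde. Control mice were Cre-; Utx fl/fl and Utx-deleted mice Cre+; Utx fl/fl, so every animal carried the loxP-flanked (fl) alleles of Kdm6a, the gene of UTX. In the Utx-deleted mice Krt14-Cre removes the gene in tissue that expresses keratin 14, and epidermal cells of other lineages, such as melanocytes and immune cells, are not its target. No age is given in the labels. Of the 17 libraries, 8 are from control mice (UTX 3, H3K27ac 2, input 3) and 9 from Utx-deleted mice (3 each). The authors merged the libraries of a group before calling peaks, so each list is a single observation without replicates, read depth is unknown from the lists, and genotypes could be compared without a test only. The intervals given are 95% intervals and cover counting error only. The 4 lists hold 547 control UTX, 213 Utx-deleted UTX, 2140 control H3K27ac and 48 Utx-deleted H3K27ac peaks.

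UTX is a demethylase of lysine 27 of histone H3 and a subunit of the COMPASS-like complexes that carry the methyltransferases Kmt2c and Kmt2d. These complexes are known for work at enhancers, many of which lie inside genes, and UTX has known roles that do not need its demethylase activity. H3K27ac, acetylation of the same lysine, marks active promoters and enhancers.

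Genomic sequence under most of the peaks was not used here, but RefSeq promoter windows (build GRCm38.p6) show 4 sites that the results turn on. A window runs from 250 bases before to 50 after a start listed for the gene, which can lie inside the gene's span. The first 3 sites are promoter windows of UTX host genes that carry a control H3K27ac peak while their UTX peak lies deeper in the gene. They were picked, among 7 such hosts, for the shortest distance between the UTX peak and any H3K27ac peak of the gene. Capitals mark GC boxes (GGGCGG or CCGCCC) and CCAAT boxes (CCAAT or ATTGG), searched on both strands, which do not overlap each other. The promoter window of Rfx5, a factor that switches on MHC class II genes, is chr3:94953858-94954157 on the plus strand. That of Cflar, an inhibitor of caspase-8 activation at death receptors, is chr1:58711241-58711540 on the plus strand. That of Uqcc1, an assembly factor of mitochondrial complex III, is chr2:155930261-155930560 on the minus strand.
Rfx5: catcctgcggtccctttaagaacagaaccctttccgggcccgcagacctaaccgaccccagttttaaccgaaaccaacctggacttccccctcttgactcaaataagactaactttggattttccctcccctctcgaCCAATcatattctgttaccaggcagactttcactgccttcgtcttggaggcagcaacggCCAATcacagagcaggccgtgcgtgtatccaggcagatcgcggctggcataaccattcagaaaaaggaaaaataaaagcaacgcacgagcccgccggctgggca
Cflar: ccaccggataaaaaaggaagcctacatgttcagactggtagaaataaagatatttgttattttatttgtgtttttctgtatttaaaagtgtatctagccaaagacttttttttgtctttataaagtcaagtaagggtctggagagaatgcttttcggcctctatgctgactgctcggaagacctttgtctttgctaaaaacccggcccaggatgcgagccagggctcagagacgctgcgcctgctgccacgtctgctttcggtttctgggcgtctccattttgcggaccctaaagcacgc
Uqcc1: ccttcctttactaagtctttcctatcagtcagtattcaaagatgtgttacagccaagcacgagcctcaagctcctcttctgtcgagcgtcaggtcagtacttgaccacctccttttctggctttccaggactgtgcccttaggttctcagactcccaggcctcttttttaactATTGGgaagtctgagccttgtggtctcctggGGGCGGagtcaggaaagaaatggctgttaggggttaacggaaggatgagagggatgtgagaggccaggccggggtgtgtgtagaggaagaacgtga
The Rfx5 window held 2 CCAAT boxes and 16 CpG, the Cflar window neither box and 12 CpG, and the Uqcc1 window 1 of each box and 7 CpG. Over the 17492 promoter windows in the table, 46.3% held a GC box and 39.0% a CCAAT box. The control H3K27ac peaks covered 25, 222 and 300 bases of the 3 windows. The Rfx5 window lies inside the gene's span, which begins at chr3:94950689, and not at the start of that span.

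The last of the 4 is the only promoter window in the table that any control UTX peak touched. It belongs to Hk1os, a long non-coding gene (lncRNA) inside Hk1, a hexokinase, the enzyme of the first step of glycolysis. The peak, chr10:62361855-62362156, was 302 bp wide and ended 72 bases into the window, which is chr10:62362085-62362384 on the plus strand. This window lies inside the annotated span of Hk1os, chr10:62340234-62363611, and not at the start of that span. Capitals mark the bases under the peak.
Hk1os: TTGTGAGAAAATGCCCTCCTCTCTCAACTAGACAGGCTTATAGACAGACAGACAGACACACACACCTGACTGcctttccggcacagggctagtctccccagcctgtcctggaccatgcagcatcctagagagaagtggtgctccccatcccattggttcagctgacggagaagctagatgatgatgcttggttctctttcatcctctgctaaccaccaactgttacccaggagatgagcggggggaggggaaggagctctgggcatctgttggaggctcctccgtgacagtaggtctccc
The stretch under the peak contains the runs GACAGACA and CACACACA, which overlap each other. Of all 17492 promoter windows, 1.84% hold the former and 3.44% the latter on either strand.

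The intragenic peaks were short and came in a pair of size groups. Their widths ran from 199 to 600 bp with a median of 333 bp (316 to 340) and quartiles of 213 and 354 bp. In the class from 199 to 239 bp lay 85 of them (32.1%), and in the classes from 340 to 359 and from 360 to 379 bp lay 71 (26.8%) and 36 (13.6%). The range from 240 to 319 bp between the groups held 36 peaks (13.6%), and 11 peaks (4.15%) were 380 bp or wider. Peaks outside genes had the same narrowest width, 199 bp, a median of 323.5 bp (292 to 341) and quartiles of 209 and 356 bp. The intervals of these medians overlap. The narrowest Utx-deleted UTX and control H3K27ac peaks were 199 bp as well, while their medians were 289 and 273 bp.

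**Figure D1:**
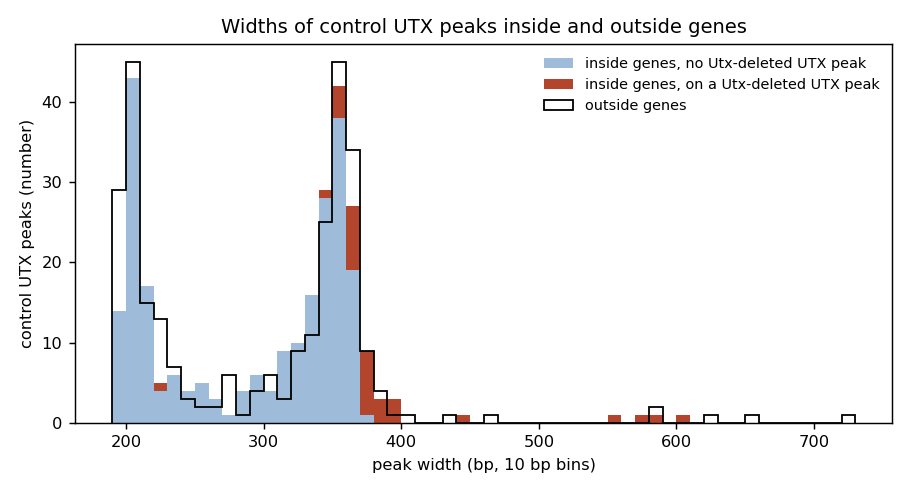
Widths of the 265 control UTX peaks inside genes in bins of 10 bp (filled bars, split by whether the peak overlaps a Utx-deleted UTX peak) and of the 282 peaks outside genes (black outline). Both sets pile up near 200 bp and near 350 bp. Every intragenic peak of 380 bp or more overlaps a Utx-deleted UTX peak, as do 11 of 13 such peaks outside genes (split not drawn).

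The widest peaks lay in genes of unlike function. The widest, 600 bp at chr12:4417573-4418172, lay in Ncoa1, which encodes a coactivator of nuclear receptors, 59.0 kb from the nearer end of the gene. The next, 586 bp at chr12:69159162-69159747, overlapped the first or last 25 bp of Rps29, a protein of the small ribosomal subunit, and is described below. Ano2, a calcium-activated chloride channel, held a peak of 576 bp at chr6:125876765-125877340, close to the middle of the gene. Kcnq1, a voltage-gated potassium channel, held one of 551 bp at chr7:143368232-143368782. Camk2g, the gamma subunit of calmodulin-dependent kinase II, held one of 443 bp at chr14:20766868-20767310. The remaining widest peaks were between 375 and 396 bp. They lay in Marchf1 (396 bp), a membrane-bound ubiquitin ligase, Plxdc2 (392 bp), a plexin-domain membrane protein, and Tmem170 (392 bp), a small membrane protein. Myo7a (387 bp) encodes a myosin of sensory hair cells, Dpp9 (385 bp) a dipeptidyl peptidase that holds back the NLRP1 inflammasome, and Zfp949 (381 bp) a zinc finger protein. Fut8, the core fucosyltransferase, and Rasgrf1, a Ras exchange factor, tied at 375 bp.

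The Rps29 peak is inside a gene only by its edge. It covered the whole of Rn7s1, a gene of 299 bp for the 7SL RNA of the signal recognition particle, at chr12:69159295-69159593. A control UTX peak of the same width, 586 bp, at chr12:69361029-69361614, covered the other annotated copy, Rn7s2 (299 bp, chr12:69361183-69361481), and lay outside protein-coding genes. The copies are close relatives, so reads from one can be placed on the other, and neither peak can be assigned to its copy with certainty. Without the Rn7s1 peak, 264 intragenic peaks remained.

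The host genes were long. Their median length was 83.7 kb (68.5 to 95.7), with quartiles of 32.9 and 210.5 kb, against 17.2 kb over all 21887 protein-coding genes, and 234 of the 262 (89.3%) were longer than the median gene. A long gene offers more room for a peak: if all gene sequence is lined up, the base in the middle lies in a gene of 138.4 kb, longer than the median host. Over all genes, 1.20% held a control UTX peak. This share rose with every length class, from 0.101% of the 7926 genes of up to 10 kb to 8.37% of the 227 genes over 500 kb.

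Per length of gene sequence the order was different. Genes of 10 to 25 kb held 0.417 peaks per Mb (0.294 to 0.575, exact Poisson interval), the highest of the 7 classes. Genes of 25 to 50 and of 50 to 100 kb held 0.353 (0.258 to 0.471) and 0.339 (0.258 to 0.436). Genes of 100 to 200 and of 200 to 500 kb held 0.222 (0.162 to 0.299) and 0.225 (0.168 to 0.295). Genes over 500 kb held 0.0985 (0.0593 to 0.154), the lowest class, with 18.4% of the gene sequence and 7.14% of the peaks. The shortest class, with 8 peaks, held 0.246 per Mb and an interval too wide to place it (0.106 to 0.484). Outside genes the density was 0.178 per Mb (0.158 to 0.2), above that of the genes over 500 kb and below the 0.257 (0.227 to 0.29) of all gene sequence. Gene spans covered 39.4% of the chromosome stretches from the first to the last annotated gene. The unequal density by gene length was not tested against replicates. Control H3K27ac peaks also thinned out with gene length, and far more steeply, from 7.92 per Mb in genes of up to 10 kb to 0.0778 in genes over 500 kb.

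**Figure D2:**
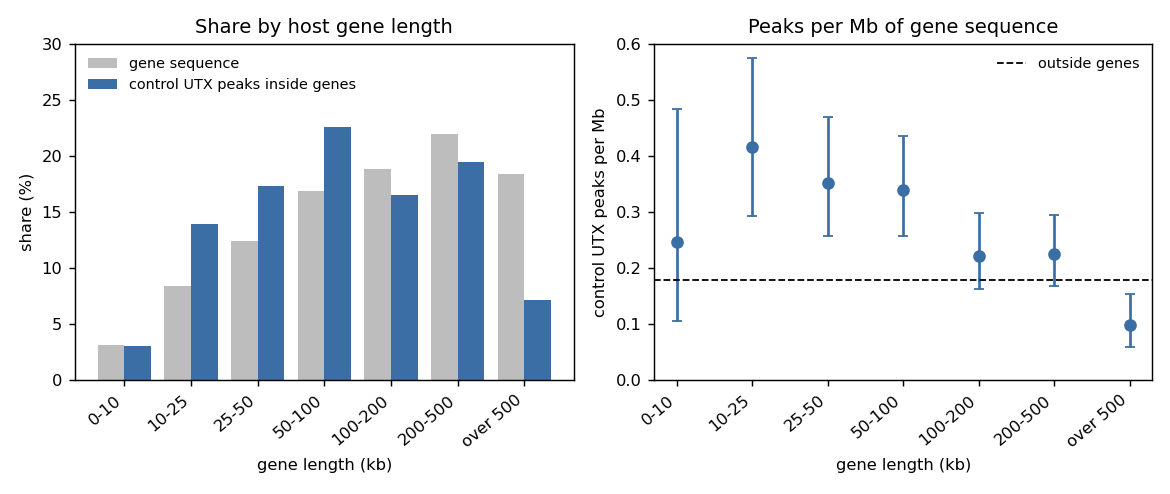
Left, the share of all protein-coding gene sequence and of the control UTX peaks inside genes in each class of gene length (kb). Right, control UTX peaks per Mb of gene sequence with exact 95% Poisson intervals, and the density outside genes as a dashed line (0.178 per Mb). Genes of 10 to 100 kb lie above the dashed line and genes over 500 kb (0.0985 per Mb) below it.

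Of the 8 longest hosts, most of them genes known from the nervous system, 4 held a peak of the narrow size group. Lsamp, a neuronal adhesion protein, spans 2197.4 kb and held a peak of 200 bp that lay 801.4 kb from its nearer end. Magi2, a synaptic scaffold (1485.4 kb), held a peak of 199 bp, Il1rapl1, a synaptic receptor gene on X (1375.0 kb), one of 222 bp, and Cdh13, a cadherin anchored in the membrane by a lipid (1184.9 kb), one of 202 bp. Wider peaks lay in Auts2 (1105.9 kb, 372 bp), a partner of Polycomb complexes in neurons, and in Sgcd (1018.4 kb, 336 bp), a sarcoglycan of muscle. Robo1, an axon guidance receptor (1020.0 kb), held one of 328 bp, and Ntm, an adhesion relative of Lsamp (968.5 kb), one of 292 bp. At the other extreme were Rps29 (1.47 kb), Izumo1 (5.43 kb, 369 bp), the sperm protein for fusion with the egg, and Atraid (5.99 kb, 365 bp), a membrane protein induced by retinoic acid. Tlcd5 (8.04 kb) held a peak of 344 bp, Troap, a mitotic spindle protein (8.44 kb), one of 201 bp, and Ctsl, the lysosomal protease cathepsin L (8.88 kb), one of 349 bp.

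Few of the peaks crossed an end of their host. Wholly within the span were 262 of the 265 peaks, and only 10 came within 1 kb of a gene end. The median distance to the nearer end was 17.7 kb, in hosts with a median length of 83.7 kb. The distance that random places in these genes would give was not worked out. The 3 peaks across a gene end were those at Rps29, at Fan1, a DNA repair nuclease (238 of 348 bp inside), and at Mtmr7, a lipid phosphatase (47 of 202 bp inside). Just outside the rule were peaks 136 bp from Mbtps1 (203 bp wide), 366 bp from Cd14 (221 bp), 424 bp from 1810058I24Rik (335 bp) and 578 bp from Ciao2a (277 bp). For the 211 pairs of peak and host with a known strand, the gene was divided into 5 equal stretches from the 5′ end, which held 46, 48, 40, 36 and 41 peaks in that order. These shares run from 17.1% to 22.7%, where an even spread gives 20%, a value that lies in the interval of every stretch. Exons and introns could not be told apart, because the annotation used gives spans only.

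Most hosts held a single peak: 258 had 1 and 4 had 2. In Dpep2, a membrane dipeptidase, peaks of 349 and 251 bp lay 612 bp apart. In Cdc27, a subunit of the anaphase-promoting complex, peaks of 226 and 359 bp lay 6.59 kb apart. In Ncoa1 a peak of 262 bp lay 7.03 kb from the widest one, and in Abca17, a lipid transporter of the ABC family, peaks of 324 and 248 bp lay 20.1 kb apart. A single peak, 316 bp at chr12:85274319-85274634, lay in a pair of overlapping genes, Acyp1, an acylphosphatase, and Zc2hc1c. Annotated non-coding genes were overlapped by 14 intragenic peaks (5.28%), of which 10 lay in lncRNAs and 3 in pseudogenes. Outside, they were overlapped by 44 of the 282 peaks (15.6%), of which 41 lay in lncRNAs. How much of the sequence inside and outside protein-coding genes such non-coding genes cover was not worked out, so these shares cannot be compared.

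By chromosome, intragenic peaks ranged from 0.125 per Mb of gene sequence on chromosome 15 (0.0406 to 0.292) to 0.393 on chromosome 11 (0.246 to 0.594), and these intervals overlap. The share of control UTX peaks inside genes was highest on chromosome 5, 20 of 27 (74.1%), and lowest on X, 9 of 32 (28.1%). Chromosomes 16 (71.4%) and 10 (29.2%) came close to these extremes. Per Mb of gene sequence, chromosome 5 held 0.302 (0.185 to 0.467) and X 0.197 (0.0901 to 0.374). Both intervals include the 0.257 of all gene sequence.

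Marker genes of keratinocytes held none of the peaks. None of 30 basal keratinocyte genes, 34 genes of the cornified envelope and 53 keratin genes was a host, and neither was any of 20 AP-1 factors. At the average density of genes of the same length classes, 0.545, 0.214, 0.137 and 0.125 peaks correspond to these groups, so a count of 0 is close to that average. Control H3K27ac peaks did lie in them, in 10 of the 30 basal keratinocyte genes (33.3%), among them Col17a1, Dsp and Perp, and in 4 of the 34 cornified envelope genes (11.8%), among them Krt10. Over all genes, 4.35% held a control H3K27ac peak. Of 40 epidermal transcription factors, 9 held H3K27ac (22.5%), and 1 held UTX, the receptor gene Notch2 (236 bp, in a gene of 136.8 kb). To this list 0.556 UTX peaks correspond, so a count of 1 is near that number.

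Lists of lipid and nuclear receptor genes held a few hosts. Of 42 genes listed for barrier and other lipids, the barrier lipid list, 3 held a UTX peak (7.14%), where 0.612 peaks correspond to their lengths. They were Acacb, an acetyl-CoA carboxylase (370 bp), Acsl5, an acyl-CoA synthetase (356 bp), and Alox5ap, which presents arachidonate to lipoxygenase (239 bp). Of 41 genes for retinoid handling and nuclear receptor coactivators, Ncoa1 and Rora, an orphan nuclear receptor (354 bp), held 3 peaks between them, where 0.907 correspond. The counts are small and their intervals wide. The 3 barrier lipid peaks give 1.44 per Mb (0.298 to 4.22) and the 3 retinoid and coactivator peaks 0.714 (0.147 to 2.09), beside 0.253 per Mb of summed gene length over all genes, which lies just below the former interval and within the latter. They are 2 of 31 groups looked at, and no test was run. Signalling genes of the Wnt, Notch, Hedgehog, BMP, TGF-beta and EGF pathways gave 2 hosts of 64, Lrp5, a Wnt coreceptor (347 bp), and Notch2, where 1.49 peaks correspond.

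Genes of other cell types gave a host in 2 of 5 lists. Vwf, the clotting factor of endothelium (370 bp), was the single host among 22 genes of endothelium, vessel wall and muscle, and Oca2, a melanosome membrane protein (344 bp), the single host among 13 melanocyte genes. Lists of 26 fibroblast, 29 immune and 12 Merkel cell and nerve genes had 0 hosts. In the order named, 0.396, 0.235, 0.36, 0.295 and 0.145 peaks correspond to the 5 lists, so counts of 0 and 1 are near those numbers. Control H3K27ac lay in 2 of the 22 endothelium, vessel wall and muscle genes (9.09%), Pecam1 and Vwf, and in 0 genes of the other 4 lists. None of 36 genes for COMPASS and Polycomb subunits and none of 63 other chromatin regulators held a peak. To these lists 0.509 and 1.59 peaks correspond, so counts of 0 do not set them apart.

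Genes of synapses and other very long neuronal genes gave 9 hosts of 76 (11.8%, 6.36 to 21.0), against 1.20% over all genes. Their median length is 1057.1 kb, and 8.23 peaks correspond at the density of their length classes. That density includes these genes themselves, which make up a large share of the longest class, and from the other genes alone 7.36 peaks correspond. The interval of the group's own density, 0.112 per Mb (0.051 to 0.212), is wide enough to include both. At the density of all genes, without regard to length, 20.4 peaks would correspond. Beside Lsamp, Magi2, Il1rapl1, Auts2, Robo1 and Ntm, these hosts include Cntnap5a, a relative of the neurexins (285 bp, 902.6 kb). Only 1 of the 76 genes held control H3K27ac.

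Among families taken by gene name, ion channels stood highest in share, with 8 hosts of 187 (4.28%, 2.18 to 8.21) and 8 peaks where 5.1 correspond. Motor proteins came close (3.96%, 1.55 to 9.74). The ion channel density, 0.333 per Mb (0.144 to 0.657), has an interval wide enough to include the corresponding number. Ion channel peaks include the widest intragenic ones after those of Ncoa1 and Rps29, in Ano2 and Kcnq1. Others, of 360 bp each, lay in Cacng2, an AMPA receptor auxiliary subunit, and Scn11a, a sodium channel of pain neurons. Zinc finger genes gave 7 hosts of 466, where 4.78 peaks correspond, with Zfp949, Zfp106 (366 bp), Zfp821 (352 bp) and Zfp516 (319 bp) as the widest. Solute carriers gave 5 of 375, where 5.55 correspond, among them Slc39a11 (346 bp), of a zinc transporter family, and Slc30a10 (295 bp), known for manganese export. Motor proteins gave 4 of 101, where 3.03 correspond: Myo7a, the non-muscle myosin Myh10 (336 bp), the ciliary dynein subunit Dnaic1 (310 bp) and the kinesin Kif22 (200 bp). The ubiquitin system gave 4 of 255, where 3.46 correspond: Usp39 (358 bp), Ube2g1 (354 bp), Usp29 (324 bp) and Trim63 (205 bp).

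In other families the number was lower than the one that corresponds, by counts mostly too small to set them apart. The exact Poisson interval of each includes the corresponding number, for the predicted and RIKEN genes only just. Cadherins and protocadherins gave Cdh13 alone, 1 of 110, where 3.15 peaks correspond, and 0.059 peaks per Mb (0.00149 to 0.329). Receptors for glutamate, GABA and glycine gave 0 of 53, where 2.32 correspond, collagens and laminins 0 of 55 (1.61), and phosphodiesterases and cyclases 0 of 45 (1.58). The 1518 chemosensory receptors, short genes in large clusters, gave 0 where 1.91 correspond. Predicted and RIKEN genes gave 4 of 1748 where 10.1 correspond, and 0.118 peaks per Mb (0.0323 to 0.303). From the other genes alone 10.5 correspond to them, which lies just above that interval. No test was run. ADAM proteases (0 of 59), receptor tyrosine phosphatases (0 of 21) and the serpin, Spink and Klk genes (0 of 103) also had none, where 1.24, 1.03 and 0.588 correspond. In all, 50 of the 262 hosts belonged to any list or family other than the predicted and RIKEN genes. The same share over all genes was not worked out, so this count cannot be read as a trait of the hosts.

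**Figure D3:**
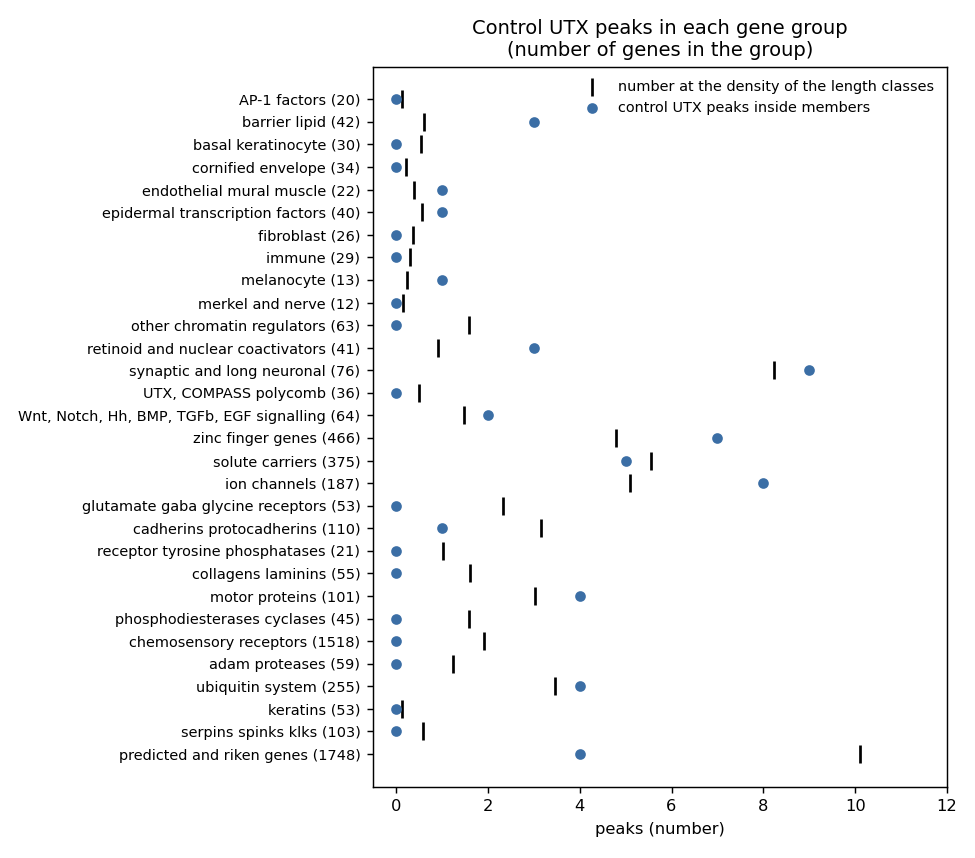
Number of control UTX peaks inside the genes of the lists and families described (points) and the number that genes of the same length classes hold on average (vertical ticks), with the number of genes in brackets. Synaptic and long neuronal genes hold 9 peaks beside 8.23, barrier lipid genes 3 beside 0.612, and keratinocyte and keratin groups 0.

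Of the intragenic peaks, 33 of 265 (12.5%, 9.01 to 17.0) overlapped a peak that the UTX antibody gave in Utx-deleted epidermis, against 38 of 282 outside genes (13.5%, 9.98 to 18.0) and 13.0% of all control UTX peaks. The share inside genes was thus close to that of the whole list. Seen from the other list, the 33 are 33.0% of the 100 Utx-deleted UTX peaks inside genes. Those 100 are 46.9% (40.4 to 53.6) of the 213 Utx-deleted UTX peaks, close to the intragenic share of 48.4% in the control list. Sharing went with width, both inside and outside genes. All 11 intragenic peaks of 380 bp or more were shared, as were 16 of the 36 from 360 to 379 bp (44.4%, 29.5 to 60.4) and 5 of the 71 from 340 to 359 bp (7.04%, 3.05 to 15.4). Of the 85 narrowest, from 199 to 239 bp, 1 was shared (1.18%), in Ago4, an Argonaute protein (228 bp), and none of the 36 from 240 to 319 bp or of the 26 from 320 to 339 bp was. Shared intragenic peaks had a median control width of 371 bp (364 to 381) and the others 316 bp (288 to 333). The widest peak that was not shared, 375 bp, lay in Fut8.

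At the shared sites the Utx-deleted peak was narrower in 32 of 33 cases, with a median width of 341 bp and a median difference of -75 bp. In Ncoa1 the peak measured 600 bp in control and 346 bp in Utx-deleted epidermis, in Kcnq1 551 and 344 bp, and in Camk2g 443 and 261 bp. In Rps29 the widths were 586 and 416 bp, and in Ano2 576 and 510 bp. Marchf1 (396 and 291 bp) and Tmem170 (392 and 317 bp) showed a like gap, while Plxdc2 (392 and 364 bp), Myo7a (387 and 341 bp) and Dpp9 (385 and 360 bp) differed by less than 50 bp. The Utx-deleted peaks fell into the same pair of size groups as the control peaks. At 18 sites they were 320 bp or wider, as in Ybx3, a cold-shock domain protein (371 bp in control and 362 bp), Bzw2, a regulator of translation start (364 and 359 bp), Prkdc, the DNA-dependent protein kinase (363 and 343 bp), and Vwf (370 and 357 bp). At 11 sites they were narrower than 240 bp, and at 10 of these the control peak was 340 bp or wider. Examples are Cyp27a1, the sterol hydroxylase (359 and 213 bp), Pak3, a kinase gene on X (354 and 199 bp), Hapln1, a link protein of cartilage matrix (362 and 210 bp), and Zfp106 (366 and 210 bp). At 14 of the 33 sites the Utx-deleted peak covered at least 90% of the control peak, and the lowest cover was 54.3%, in Sepsecs. The exception was Vps45, a regulator of vesicle fusion, with 344 bp in control and 521 bp in Utx-deleted epidermis, a difference of 177 bp. Widths of peaks called on merged libraries depend on read depth, which is unknown here, and its part in these differences was not tested.

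**Figure D4:**
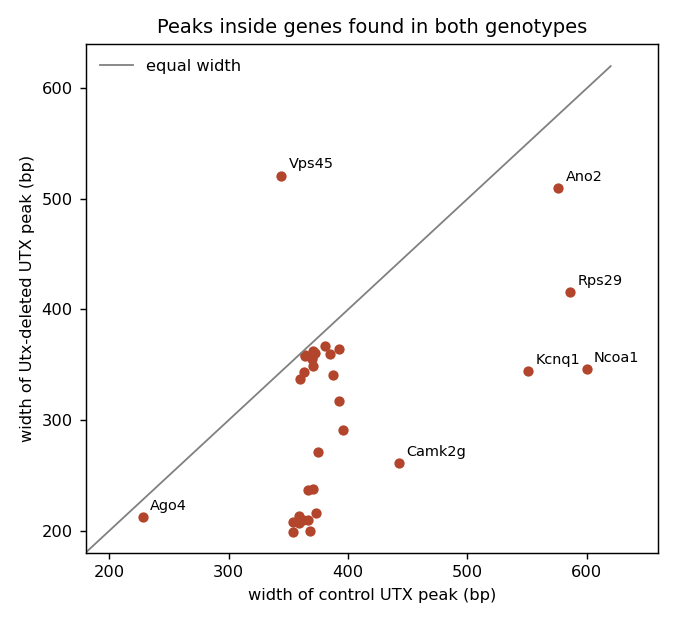
Width in base pairs of the control UTX peak (horizontal axis) and of the Utx-deleted UTX peak (vertical axis) at the 33 intragenic sites found in both lists, with the line of equal width. Every site but Vps45 (344 and 521 bp) lies below the line.

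Few intragenic UTX peaks lay on H3K27ac. Control H3K27ac peaks were met by 2 of 265 (0.755%, 0.207 to 2.71), against 2 of 282 outside genes (0.709%) and 0.731% of the whole control UTX list. In Acsl5 the UTX peak, chr19:55261981-55262336, overlapped an H3K27ac peak of 244 bp by 100 bp. In Dpp9 the UTX peak, chr17:56199857-56200241, covered an H3K27ac peak of 214 bp whole, which is 55.6% of its width. A Utx-deleted H3K27ac peak was met by 1 intragenic UTX peak (0.377%), against 0.366% of the whole list. That one was the peak in Vps45, which lay in full under an H3K27ac peak of 529 bp. The median distance from an intragenic UTX peak to the nearest control H3K27ac peak was 476.1 kb, and 10 of 265 (3.77%) came within 10 kb. For peaks outside genes the median was 1002.2 kb and 7 (2.48%) came within 10 kb. Control H3K27ac was itself mostly intragenic, with 63.1% of its peaks inside genes.

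At the level of whole genes, 23 of the 262 hosts (8.78%, 5.92 to 12.8) held a control H3K27ac peak somewhere in their span, against the 4.35% of all genes and 5.42 to 6.53% of genes of 25 to 200 kb. Actn4, an actin crosslinker, held 5 H3K27ac peaks, the nearest 4.18 kb from its UTX peak of 199 bp. Zdhhc5, a palmitoyltransferase, held 4, and its UTX peak of 319 bp lay 155 bp from one of them without touching it. Acsl5 held 3. With 2 each came Baz2b, a bromodomain protein (62.1 kb apart), Cflar (5.44 kb), Lipc, a hepatic lipase (41.1 kb), Rora (42.3 kb) and Thada (96.0 kb). The gap between UTX and H3K27ac in these 23 hosts had a median of 32.6 kb and was over 10 kb in 16, so that sharing a gene did not mean sharing a place. In 3 of the 23, Lipc, Dpp9 and Vwf, the UTX peak was also found after deletion. That is close to the share of all intragenic peaks, 33 of 265 (12.5%).

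Of the 208 hosts with a promoter window in the table, 7 (3.37%, 1.64 to 6.78) had control H3K27ac on it, against 1.37% of all genes with one. The 7 were Uqcc1, Baz2b, Cflar, Nfatc3, Tmco4, Deaf1 and Rfx5. The promoter share of genes of like length was not worked out. Over whole spans, control H3K27ac lay in 2.66% of genes up to 10 kb, 6.53% of those of 100 to 200 kb and 4.41% of those over 500 kb. At Rfx5 the H3K27ac peak was 683 bp wide and the UTX peak, 345 bp at chr3:94957210-94957554, lay 3.33 kb from it. At Cflar the H3K27ac peak was 374 bp wide, with the UTX peak (230 bp, chr1:58719194-58719423) 7.73 kb away. At Uqcc1 it was 382 bp wide, with the UTX peak (213 bp, chr2:155923768-155923980) 6.27 kb away. By the way they were picked, the Rfx5, Cflar and Uqcc1 promoter windows printed above carry the acetyl mark and no UTX peak. Only the Hk1os window met a control UTX peak at all, so this does not set these genes apart. At Rfx5 the H3K27ac peak covers only 25 bases of the window. In composition, host promoters were like those of other long genes: their median GC content was 61.0% with 18.5 CpG, and 56.7% held a GC box, against 60.7%, 19 and 58.8% for genes longer than 25 kb, and 56.3%, 13 and 46.3% for all genes.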

How the data were processed

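Each of the 4 deposited peak lists covers an antibody in a genotype and gives chromosome, start and end only; these positions carry no score, height or q. Per the file headers, MACS2 called the peaks on the merged libraries of a group. The submitters' processing notes also name FastQC, Bowtie2, bedtools and deepTools, with no version, and the builds mm39/GRCm39 and mm10/GRCm38. GRCm38 was used, because 11.4% of the control H3K27ac peaks lay on GRCm38.p6 promoter windows, against 1.59% and 1.31% when shifted by 10 kb in either direction. The labels' protocols state 3 samples a group, but only 2 control H3K27ac libraries are labelled. Groups come from the genotype and antibody labels.

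Deposited starts were raised by 1 to give 1-based coordinates. Peaks were joined to RefSeq spans of 21887 protein-coding genes and to each other at an overlap of at least 1 bp. Shares have Wilson intervals, densities exact Poisson intervals and medians intervals from order statistics. The number said to correspond to a gene group is the sum over its genes of length times the peak density of their length class, which includes the group's own genes. No test was run, because merged lists have no replicates; the procedures were checked on simulated data. Strand is known for the 208 hosts with a promoter window.

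The members and the 31 gene lists and families were chosen with earlier results of these data known, so their counts are no independent support. Named genes are the hosts of the 12 widest intragenic peaks, of 2 peaks, the 8 longest and 6 shortest hosts, hosts of peaks on control H3K27ac and of the 10 widest shared peaks, up to 12 hosts with most H3K27ac peaks, and up to 4 hosts by width of each list or family. Genes outside this rule, such as Ago4, Ybx3, Cyp27a1, Vps45, Sepsecs, Hk1, Fan1, Mtmr7, Acyp1, Nfatc3, Tmco4, Uqcc1 and those named only for H3K27ac, were chosen after their values were seen. A few results under this rule are not reported here. Software was scipy 1.17.1, pandas 2.3.3 and numpy 2.4.6 under Python 3.11.15, with matplotlib 3.10.9 for figures.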

Additional observations from a re-analysis of the deposited data

How the results depend on the processing

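No paired analysis was possible because the libraries of a group were merged before peaks were called, and for the same reason no library could be left out. A stricter q could not be tried, since the lists hold none. Of 69 alternative values over 7 results, 14 of them from settings added after the data were seen (genes of at most 500 kb, and without the Rn7s1 peak), 64 stayed within the limits set for a value unchanged. Across the alternatives the intragenic share ran from 45.0 to 49.7% and the median host length from 73850 to 85428 bp. Keeping only peaks at or above the median width left, by construction, 135 intragenic peaks in 135 hosts with a median width of 354 bp. Intragenic peaks on control H3K27ac numbered 1 without the peaks shared with the Utx-deleted list, and 1 when at least 50% of the control peak had to be covered. Counts of 3 or fewer, as on H3K27ac and in most gene groups, carry little precision at this number of peaks.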
